A study of Ovis aries with 9 samples.

Results

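The genes described here encode plasma proteins of the complement system and of blood clotting that are made mainly in the liver, together with their inhibitors. A list of 34 names was matched to a table of 21257 genes measured by RNA sequencing in the liver of Tan sheep, a fat-tailed Chinese breed. Of these names, 33 had a row, 30 by their symbol and 3 (C3, C5 and C4BPA) under a locus identifier that the RefSeq sheep table ties to that gene. No row was matched to F11, the gene of clotting factor XI, which was not analysed here. The 33 genes comprised 18 of complement and 15 of coagulation and fibrinolysis, and the list goes by name and function, although it was drawn up with earlier results of these data known.

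The trial used 30 male sheep, 5 months of age, housed as pairs (2 sheep to a stall, 5 stalls for each diet), and it ran for 60 days after 10 days of adaptation. The groups received the basal diet alone (control, 0% succinate), the basal diet with 1% succinate, or the basal diet with 2% succinate, and 3 liver libraries stood for each diet. Succinate is an intermediate of the tricarboxylic acid cycle. The labels do not say whether each library came from a different sheep or stall, so the p-values below reflect library-to-library spread alone, some of which may be technical. The treatment label places library 3 at 1%, while its title gives 2%; it was kept at 1%, and the comparisons were repeated without it and with it at 2%. The series title concerns muscle, whereas the tissue label is liver. The 12 hepatocyte markers had a median of 1600 to 2815 FPKM across the 9 libraries, against 0 to 0.0485 FPKM for the 7 skeletal muscle markers, of which the muscle creatine kinase CKM was at 0 in every library. The libraries held 13818648 to 18172528 reads, as recovered from the values. FPKM is a fragment count scaled by the length of the gene model and by the size of the library. Levels can be set side by side between genes only as far as those lengths are right. The annotation behind them is not named, so they could not be checked.

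Complement is a chain of plasma proteases and binding proteins that marks and lyses microbes. Its classical and lectin routes start with the proteases C1R, C1S, MASP1 and MASP2, which cleave components into enzymes (convertases) that split C3 and then C5; the alternative route uses factor B. The terminal proteins C5 to C9 assemble into a pore in the target membrane, and C4BPA, CFI, SERPING1 and VTN restrain the cascade. Clotting likewise runs through proteases that activate each other. The contact system (F12, KLKB1, KNG1) and the vitamin K-dependent factors F7, F9, F10 and F2 lead to thrombin, which turns fibrinogen into fibrin; F5 is a cofactor, F13B carries the crosslinking enzyme, PROC, PROS1, SERPINC1 and SERPIND1 limit the process, and PLG with its inhibitor SERPINF2 governs the removal of clots. Hepatocytes are the main source of most of these proteins, several of which are acute phase proteins that increase in inflammation.

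All 33 genes were well above the filter of at least 1 FPKM in at least 3 libraries, and all were among the 11944 genes tested. Together they held 2.98% to 4.42% of all FPKM in a library. The highest mean levels over the 9 libraries were those of VTN (2538 FPKM), C3 (2073 FPKM) and SERPING1 (1450 FPKM), and C9 and PLG also exceeded 1000 FPKM. At the other end, 9 genes had means under 100 FPKM (F12, C8A, MASP2, PROS1, F7, F13B, MASP1, KLKB1 and C7). C7 was the lowest at 14.5 FPKM, while its partners in the same pore complex, C6 and C9, averaged 293 and 1124 FPKM. VTN, C3 and SERPING1 alone held 33.7% to 37.7% of the summed FPKM of the 33 genes.

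**Figure D1:**
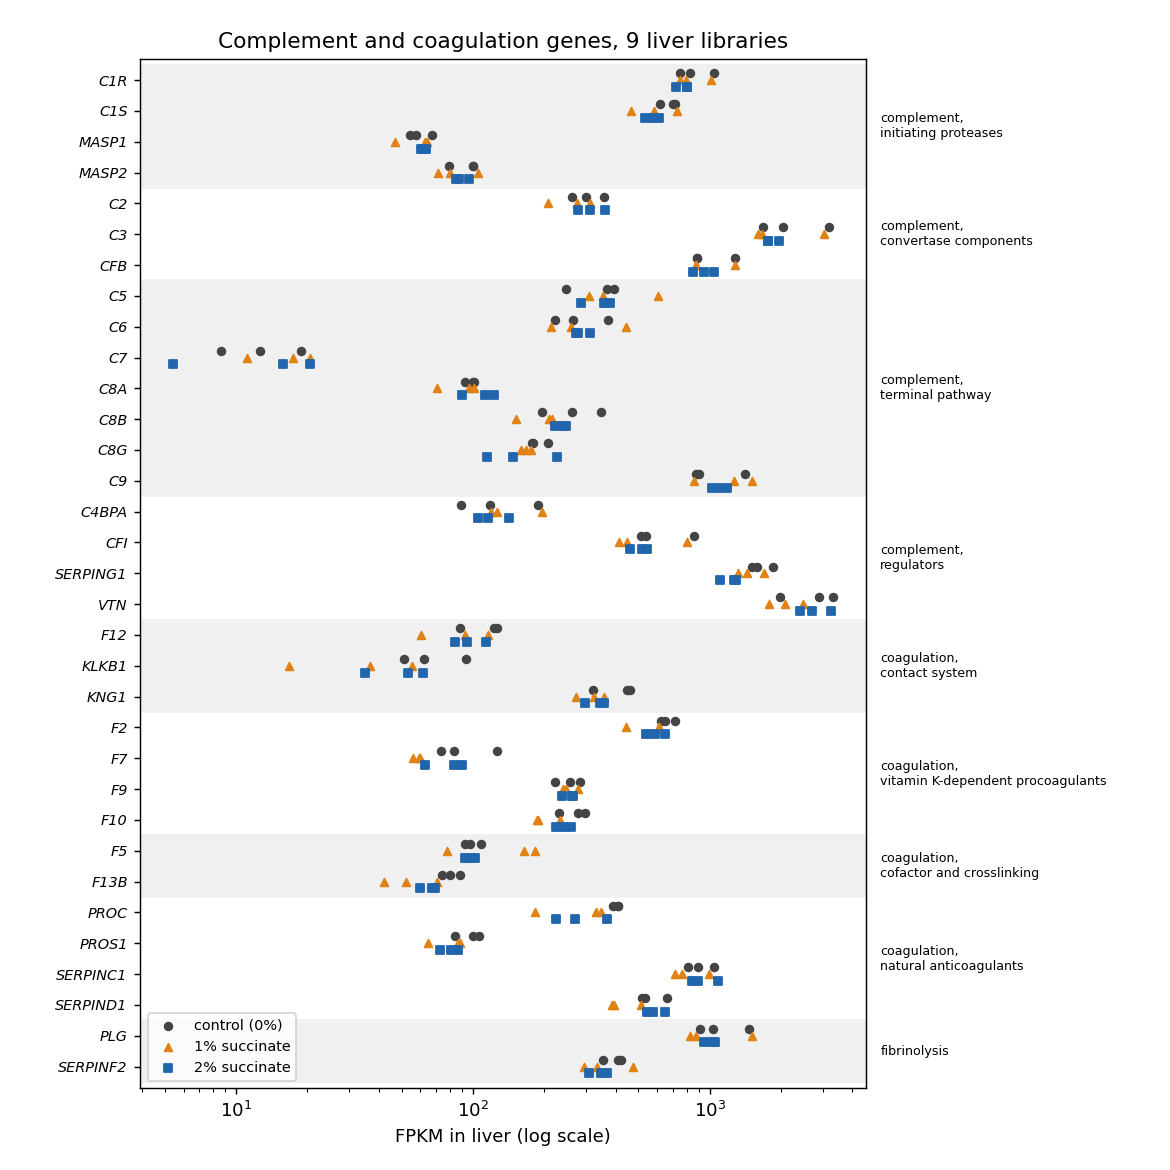
FPKM (log axis) of each of the 33 genes in the 9 liver libraries, grouped by role; black circles are control (0%), orange triangles 1% succinate and blue squares 2% succinate libraries. VTN, C3 and SERPING1 lie at the right edge and C7 far to the left of its terminal pathway partners, and for most genes the 3 diets overlap.

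The level of a typical gene of the set varied a little less between libraries than that of a typical tested gene. The median coefficient of variation over the 9 libraries was 18.8%, beside 22.7% for all tested genes and 23.2% for the 1052 tested genes with a mean of at least 50 FPKM. F9, the protease lacking in haemophilia B, was the steadiest at 7.86%, with 222 to 283 FPKM in all libraries. MASP1, a lectin-route protease, was next at 10.3%. The most variable were KLKB1 at 41.7%, C7 at 37.2% and F5 at 31.7%. Read sampling error was small beside this spread: the smallest count behind any value was 275 reads (C7, a counting error of 6.03%), and the counting error of every other gene was at most 4.20%. Within groups, the median coefficient of variation was 15.5% in control, 20.2% at 1% and 8.65% at 2%.

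Some libraries stood apart across many of the genes. Control library 2 and 1% library 2 were the 2 highest of the 9 libraries for 13 of the 33 genes, 10 of them complement genes (C1R, MASP2, C3, CFB, C5, C6, C9, C4BPA, CFI and SERPING1) with F9, PLG and SERPINF2. The share of all tested genes with these 2 libraries highest was not counted. The summed FPKM of the 18 complement genes was 12044, 14422 and 11657 in the control libraries, 10648, 14336 and 9979 at 1%, and 12096, 10729 and 11567 at 2%. These sums show one high library in control and one at 1%, and none at 2%. The 15 coagulation and fibrinolysis genes summed to 5363, 5760 and 5543.5 FPKM in control, 4893, 5418 and 3990 FPKM at 1%, and 5541, 4864.5 and 4759 FPKM at 2%, where the same 2 libraries stood out less.

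C3, the protein on which all complement routes converge, shows the library pattern most plainly. It was at 2030, 3188 and 1672 FPKM in control, 1662, 3021 and 1592 FPKM at 1%, and 1769, 1761 and 1966 FPKM at 2%. CFI, the protease that inactivates the C3 and C4 fragments, had 536, 857 and 513 FPKM in control, 449, 798 and 414 FPKM at 1%, and 545, 461 and 518 FPKM at 2%. VTN, which encodes vitronectin, an inhibitor of pore insertion, ran the other way, with 2890, 1986 and 3307 FPKM in control, 2474, 2083 and 1771 FPKM at 1%, and 3237, 2394 and 2701 FPKM at 2%. The ratio of VTN to C3 therefore spanned 0.623 in control library 2 to 1.98 in control library 3, that is, within 1 diet. VTN was lower still in 1% library 3 than in either of the 2 libraries.

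Albumin was also low in control 2 and 1% library 2, while Kupffer cell markers stood apart in control 2 alone. Albumin (ALB) had its lowest values in those 2 libraries, with 18210, 13760 and 43480 FPKM in control, 36440, 11750 and 25640 FPKM at 1%, and 43860, 28840 and 39610 FPKM at 2%. The summed markers of Kupffer cells, the macrophages of the liver, were highest in control 2 (717 FPKM). Next came 1% library 2 (486 FPKM), close to the top of the 357 to 463 FPKM elsewhere. The marker list names the complement genes C1QA, C1QB and C1QC, so it may not be a reading apart from complement. The summed fibrinogen genes (FGA, FGB and FGG; FGB was named after its values were seen) were highest in 1% library 2 at 48270 FPKM and next in 1% library 3 at 38140 FPKM, while control 2, at 26850 FPKM, lay below 2% library 2, at 27110 FPKM. The part of these genes in the levels of the complement genes was not tested. In bulk tissue, fewer cells of a type and less RNA per cell cannot be told apart.

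**Figure D2:**
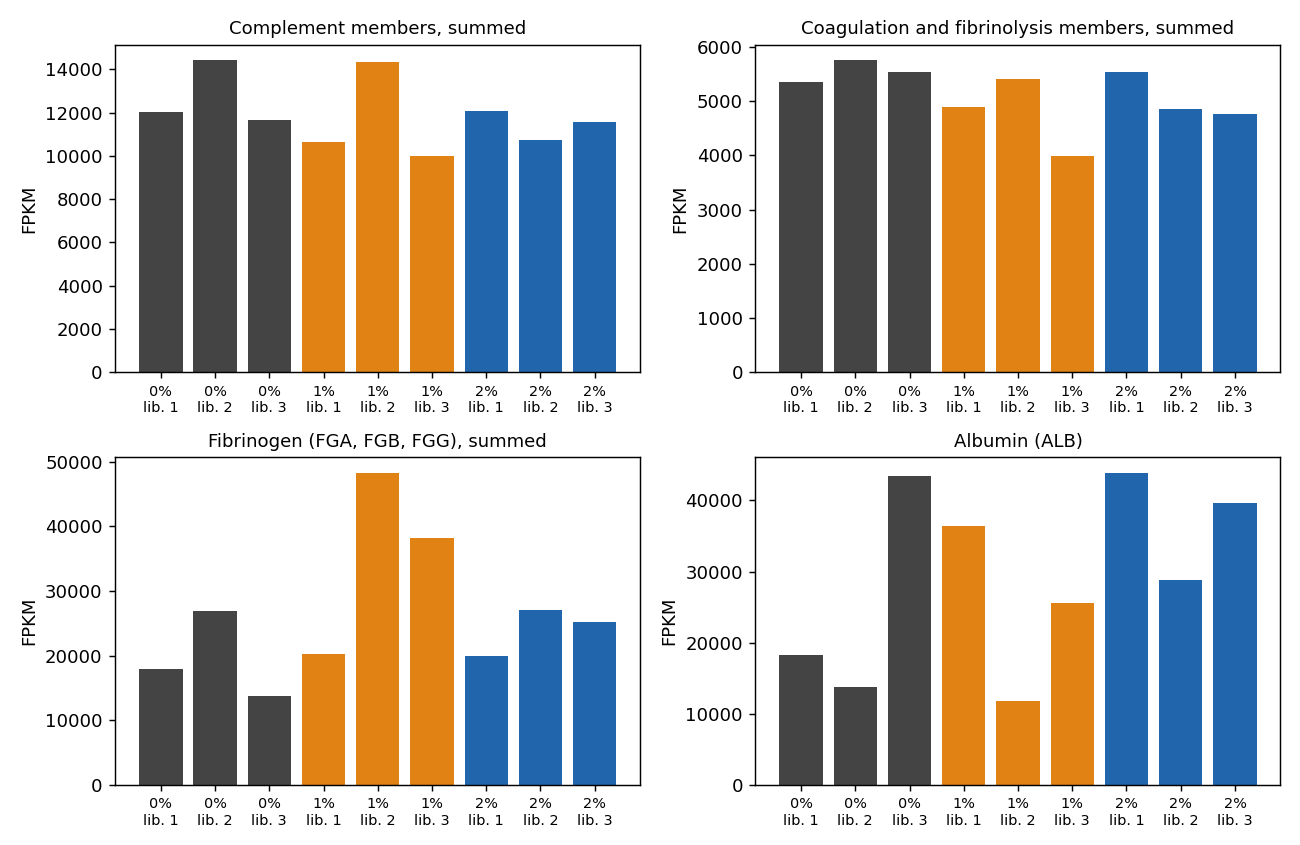
Summed FPKM of the 18 complement genes, of the 15 coagulation and fibrinolysis genes and of the 3 fibrinogen genes, and FPKM of albumin, 1 bar per library, with control (0%) in black, 1% succinate in orange and 2% succinate in blue. Complement reaches 14422 FPKM in control library 2 and 14336 FPKM at 1% in library 2, where albumin has its 2 lowest bars (13760 and 11750 FPKM).

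The library with conflicting labels stood low. Library 3 at 1% held the lowest value of 19 of the 33 genes, 8 of complement and 11 of coagulation and fibrinolysis. Its median ratio to the gene's own 9-library mean was 0.807 for complement and 0.758 for coagulation and fibrinolysis, beside 0.896 over all tested genes. The highest value fell in a control library for 19 genes, 4 in library 1, 11 in library 2 and 4 in library 3. The shares of all tested genes that are lowest in 1% library 3, or highest in a control, were not counted. Over all tested genes, the median ratio was highest in control library 1, at 1.17, against 0.889 to 0.997 in the rest. That library thus ran high beyond this set.

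**Figure D3:**
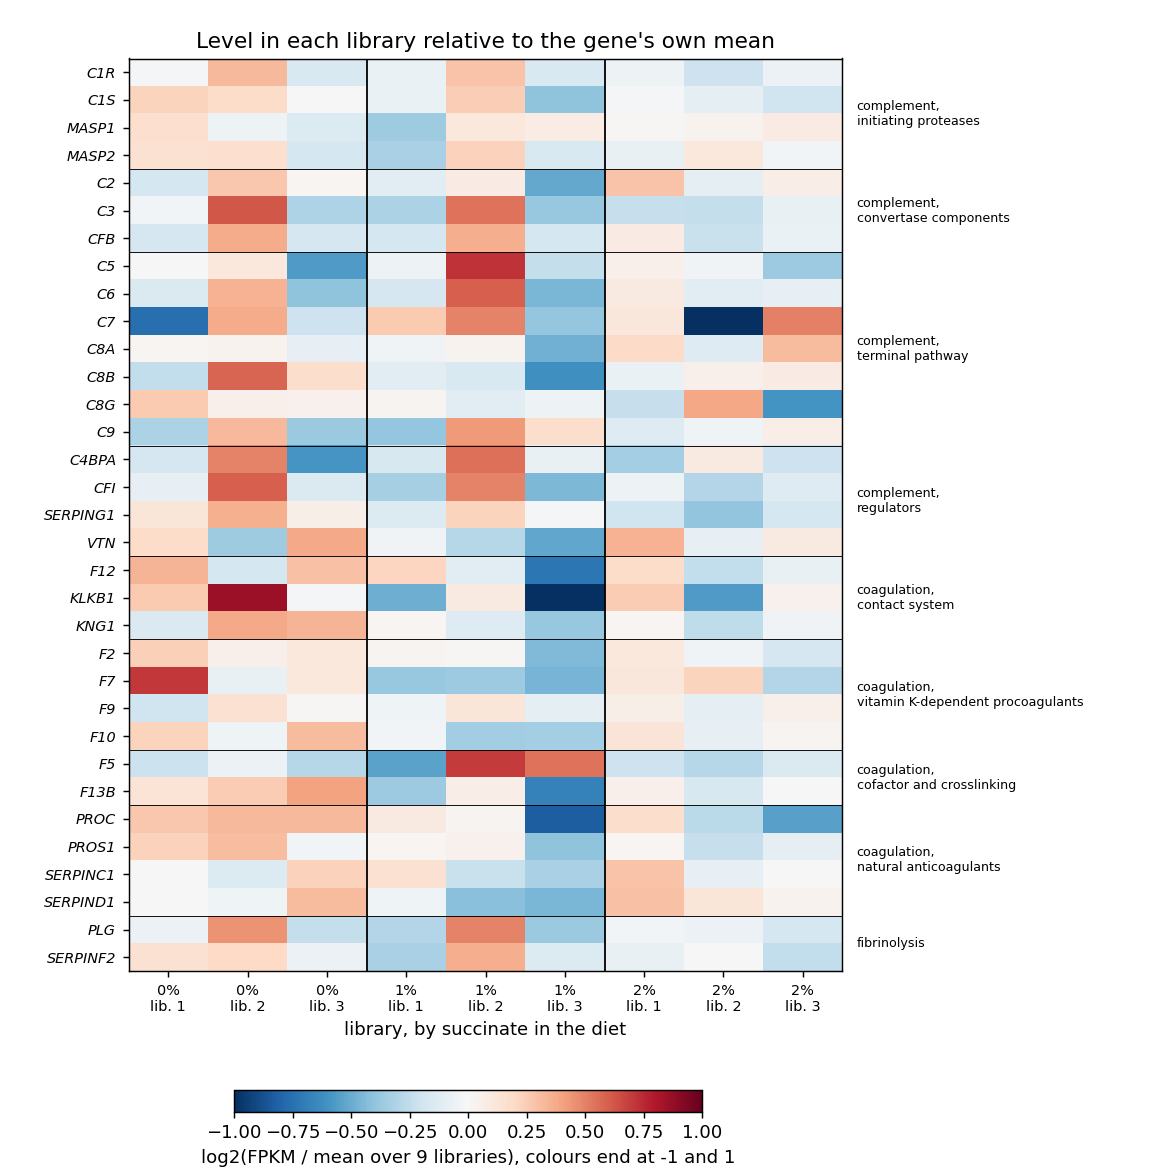
Level of each gene in each library relative to the gene's own mean over the 9 libraries, on a log2 scale whose colours end at -1 and 1; rows are genes by role, columns libraries by diet (0%, 1%, 2% succinate). Red columns in the complement rows mark library 2 at 0% and library 2 at 1%, and library 3 at 1% is blue in most rows.

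The first comparison set 1% succinate against the control diet. None of the 33 genes passed the threshold of an adjusted p of 0.05 in limma, and voom on the recovered reads also passed 0. Over all tested genes 0.0167% passed. At an unadjusted p under 0.05, 3 genes of the set (9.09%) were lower at 1% and 0 were higher, and all 3 belong to clotting: KLKB1, F7 and F13B. Voom gave 4 such genes. Over all tested genes 12.8% were lower and 2.11% higher by that measure, so the share of the set did not exceed the background.

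KLKB1 encodes plasma prekallikrein, the protease precursor that factor XII activates and that releases bradykinin from kininogen. It was at 36.8, 55.2 and 16.7 FPKM at 1%, against 62.0, 93.7 and 51.2 FPKM in control. These groups overlap, and the 2% libraries lay at 61.7, 34.9 and 53.4 FPKM. The log2 change at 1% was -1.02 (SE 0.411, adjusted p = 0.315, limma), and the means were 36.2 ± 19.3 FPKM at 1% and 69.0 ± 22.1 FPKM in control (SD, n = 3 each). Without library 3 at 1% the log2 change was -0.56.

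F7 encodes factor VII, which with tissue factor starts clotting after injury. It was at 59.1, 59.9 and 55.9 FPKM at 1%, all below the control values of 126, 73.1 and 83.0 FPKM. The log2 change was -0.64 (SE 0.23, adjusted p = 0.29, limma), with means of 58.3 ± 2.12 FPKM at 1% and 94.1 ± 28.1 FPKM in control (SD, n = 3 each). Control library 1 is the high one of that group, and without it the log2 change was -0.41. That library also ran high over all tested genes, with a median ratio to the gene's own mean of 1.17. At 2% the values were 83.5, 89.9 and 62.85 FPKM, which overlap the control range.

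F13B encodes the carrier subunit of factor XIII, the transglutaminase that crosslinks fibrin. It was at 52.2, 70.2 and 42.0 FPKM at 1%, below the 73.8, 80.0 and 88.6 FPKM of control. The log2 change was -0.58 (SE 0.204, adjusted p = 0.286, limma), with means of 54.8 ± 14.3 FPKM at 1% and 80.8 ± 7.44 FPKM in control (SD, n = 3 each). The 2% libraries were at 69.5, 60.0 and 67.4 FPKM, all below control and within the 1% range. Without library 3 at 1% the log2 change at 1% was -0.41.

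The libraries of the 2 diets did not overlap for 6 genes (18.2%), C8G, F2, F7, F13B, PROC and SERPIND1, each lower at 1%, and for 0 genes that were higher. The background was 15.6% of all tested genes lower and 2.28% higher. F2, the gene of prothrombin, was at 613, 609 and 444 FPKM at 1% and 709.7, 623 and 649 FPKM in control. PROC, the gene of the anticoagulant protease protein C, was at 346, 332 and 183.5 FPKM at 1% and 392, 409 and 408 FPKM in control, where its spread was 2.39% of the mean. SERPIND1, which encodes heparin cofactor II, a thrombin inhibitor, had 513.5, 396 and 387 FPKM at 1% and 532.5, 515.5 and 659 FPKM in control. C8G, the lipocalin-like subunit of C8, had 176, 159.9 and 167 FPKM at 1% and 208, 179.6 and 178 FPKM in control. For SERPIND1, C8G and F2 the nearest libraries of the 2 groups lay close together, and the log2 changes were -0.40, -0.16 and -0.26 (adjusted p = 0.382, 0.759 and 0.54, limma).

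By role, the coagulation and fibrinolysis genes had a median log2 change of -0.35 at 1%, and 13 of 15 lay below control. The complement genes had a median of -0.14, equal to the -0.14 of all tested genes, and 13 of 18 lay below control. Most genes leaned that way: 8190 of all 11944 tested genes lay below control at 1%. Median-ratio scaling moved the median of all tested genes to 0.007, so changes at 1% are best read relative to it. Without library 3 at 1% the coagulation and fibrinolysis median was -0.14 and the complement median -0.02, beside -0.12 for all tested genes, and 8 of 15 and 4 of 18 lay below the last value. With all libraries, 11 of 15 coagulation and fibrinolysis genes and 9 of 18 complement genes lay below the median of all genes. Under median-ratio scaling, 10 of 15 and 5 of 18 lay below control and the groups did not overlap for F7 alone. Of all tested genes, 7.54% were then lower and 10.8% higher without overlap, so F7 alone did not exceed the background. The contact system genes F12, KLKB1 and KNG1 all lay below control, under quantile and median-ratio scaling too. So did F2, F7, F10, F13B and the anticoagulants PROC, PROS1 and SERPIND1. The sign of SERPINC1, PLG and SERPINF2 turned under median-ratio scaling, and that of SERPINF2 under quantile scaling too. F9 had a log2 change of 0.005, or 0.186 under median-ratio and 0.189 under quantile scaling, and F5 lay above control throughout.

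Among complement genes the initiating proteases and convertase components lay near control at 1%. C1R, C1S, MASP1 and MASP2 had log2 changes of -0.22 to -0.03, and C2, C3 and CFB of -0.21 to -0.01. The terminal genes differed in sign. C5, which gives the anaphylatoxin C5a, and C7, which anchors the growing pore, were each at 0.30, C9 at 0.20 and C6 at 0.06, while C8B, a subunit of C8, was at -0.46 (adjusted p = 0.387, limma). C8B had 216, 209 and 152 FPKM at 1% and 196, 349 and 263 FPKM in control, so the lowest control library lies within the 1% range. F5, the cofactor of factor Xa, had the highest log2 change of the set at 0.42 (adjusted p = 0.495, limma). It was at 77.7, 183 and 164 FPKM at 1% and 97.4, 108 and 92.6 FPKM in control, so that 2 libraries at 1% lay above and 1 below all controls.

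The count at an unadjusted p under 0.05 rested on single libraries. It was 1 (F7) without library 3 at 1%, 0 with that library placed at 2%, and 7 without library 1 at 1%. In the last setting F10, PROC and SERPIND1 joined on the low side and F5 on the high side. The background moved too. Of all tested genes, 1526 were lower and 252 higher with every library. These became 754 and 96 without library 3 at 1%, 497 and 69 with it at 2%, and 2043 and 357 without library 1 at 1%. F7 was also the 1 gene left under quantile and under median-ratio scaling, where 702 and 703 of all tested genes were lower and 832 and 981 higher. Markers of T and NK cells lay below control at 1% for 7 of 7 tested genes (none of the 8 listed at 0 in every library). Their summed levels were 16.7 to 23.9 FPKM at 1% and 28.6 to 42.7 FPKM in control. Cholangiocyte markers summed to 21.2 to 137 FPKM at 1% and 11.4 to 45.2 FPKM in control. Yet 4 of 6 tested cholangiocyte markers lay below control at 1%, and 1 marker alone reached 129 FPKM in a library. The part of either list in the levels above was not tested.

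**Figure D4:**
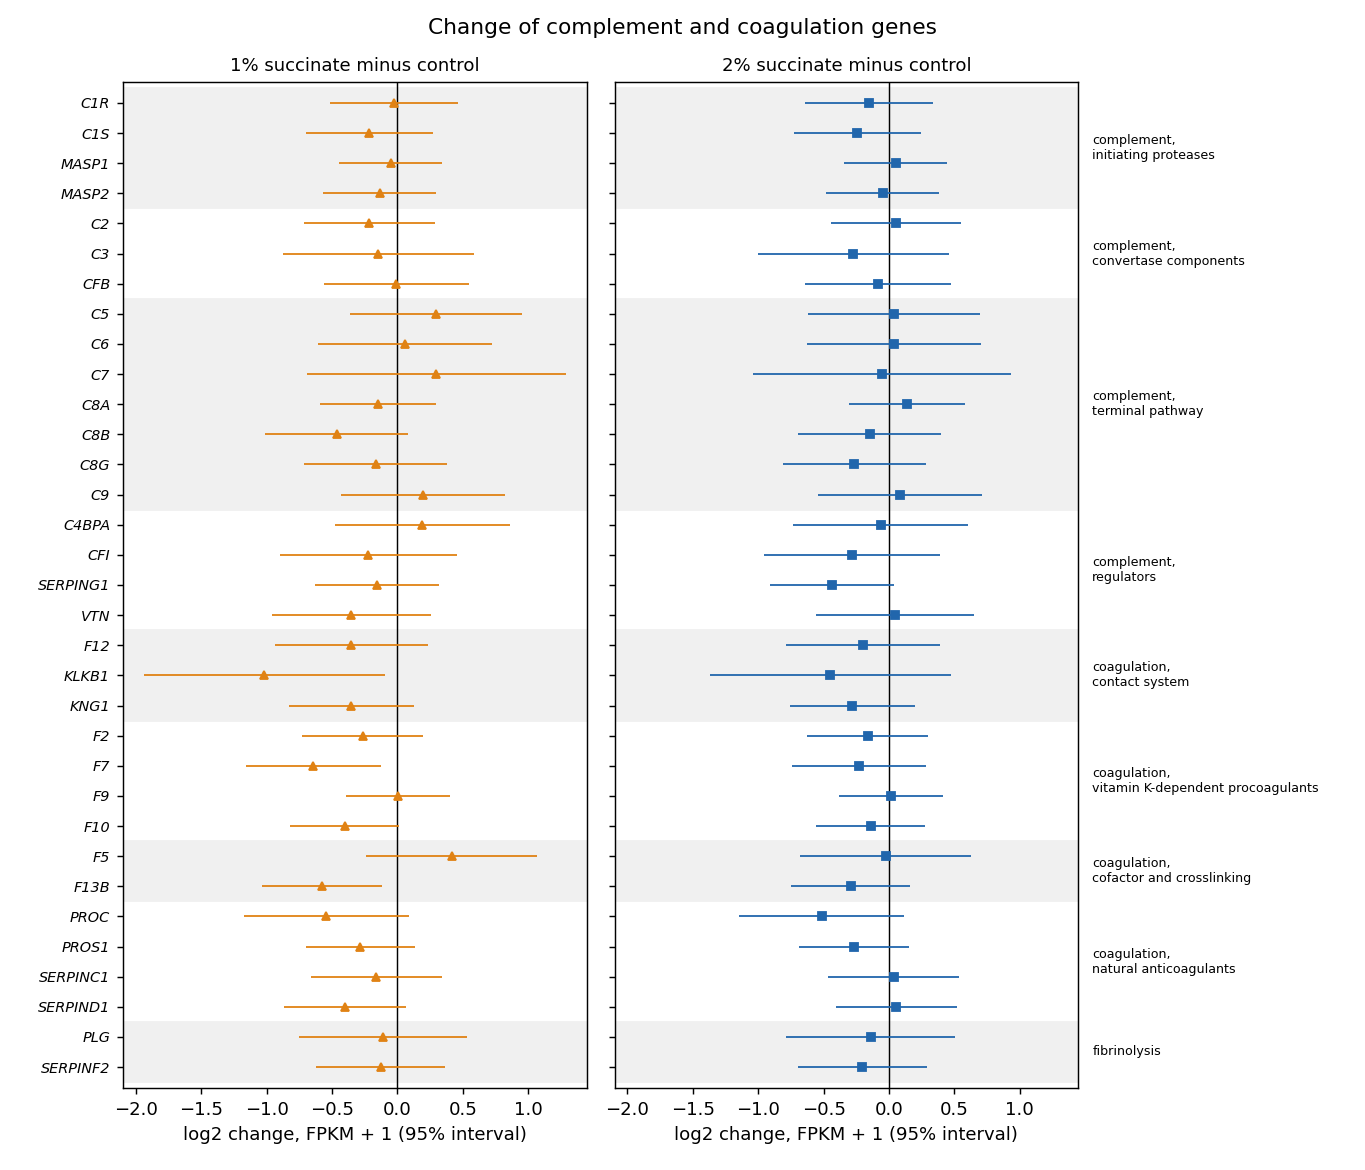
Log2 change of FPKM + 1 with its 95% interval (limma) for each gene, at 1% succinate minus control (left, orange) and at 2% succinate minus control (right, blue), by role. At 1% the intervals of KLKB1, F7 and F13B lie below 0; at 2% every interval includes 0.

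The second comparison set 2% succinate against the control diet. Again 0 of the 33 genes passed in limma or in voom, beside 0.0502% of all tested genes. By either tool 0 genes of the set had an unadjusted p under 0.05, where 4.12% of all tested genes were lower and 1.06% higher. The groups did not overlap for 4 genes (12.1%), C1S, SERPING1, F13B and PROC, each lower at 2%, and for 0 that were higher, beside 8.02% and 2.6% of all tested genes. The smallest adjusted p of the set was 0.95. Placing library 3 of the 1% group at 2%, or leaving out that library or library 1 at 2%, brought PROC to an unadjusted p under 0.05. Leaving out library 2 at 2% brought C8G there. In these settings 358 to 844 of all tested genes were lower by that measure.

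SERPING1 encodes the C1 inhibitor, the serpin that inactivates C1R, C1S and the MASP proteases and also plasma kallikrein and factor XIIa. It was at 1265, 1104 and 1287 FPKM at 2%, against 1578, 1854 and 1513 FPKM in control, and the 1% libraries were at 1316, 1697 and 1440 FPKM. All 3 libraries at 2% were thus the lowest of the 9. The log2 change at 2% was -0.43 (SE 0.211, adjusted p = 0.95, limma), with means of 1218 ± 99.9 FPKM at 2% and 1648 ± 181 FPKM in control (SD, n = 3 each). Under median-ratio scaling SERPING1 was the 1 gene of the 33 whose libraries at 2% all lay below control. MASP1 was then the 1 gene whose libraries all lay above, and C1S, F13B and PROC overlapped. By that measure 5.63% of all tested genes lay below and 6.94% above, so neither count exceeded the background.

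PROC was at 367, 271 and 224 FPKM at 2% and 392, 409 and 408 FPKM in control, with a log2 change of -0.52 (SE 0.282, adjusted p = 0.95, limma). C1S, the protease of C1 that cleaves C4 and C2, was at 608, 573 and 533 FPKM at 2% and 715, 698 and 616 FPKM in control, with a log2 change of -0.24. F13B had a log2 change of -0.29. PROC and F13B lay below every control library at both doses, though at neither dose under median-ratio scaling, and the control libraries are the same in both comparisons.

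The largest changes at 2% were the -0.52 of PROC and the -0.45 of KLKB1 on the low side and the 0.14 of C8A, the pore subunit of C8, on the high side. The median log2 change was -0.058 for the complement genes and -0.20 for the coagulation and fibrinolysis genes, beside -0.055 for all tested genes. Below control lay 11 of 18 and 12 of 15, beside 7245 of all 11944 tested genes. Without control 2 and 1% library 2 the complement median was 0.04 and 7 of 18 lay below control, while the coagulation median stayed at -0.20. For the typical gene of the set the 95% interval, before adjustment, reached 0.515 on the log2 scale to either side of the change. It reached between 0.394 and 0.987 over the 33 genes. Smaller differences were in general not detectable with 3 libraries a group. Passing after adjustment takes more: KLKB1, at -1.02 at 1% against control, did not pass (adjusted p = 0.315, limma).

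C7 is the least abundant gene of the set and its values spread most at 2%. It was at 8.62, 18.8 and 12.6 FPKM in control, 17.4, 20.5 and 11.1 FPKM at 1%, and 15.7, 5.44 and 20.6 FPKM at 2%. The 2% libraries thus hold both the lowest and the highest value of the 9. In the same library order, the summed markers of stellate cells and fibroblasts, cell types that also express C7 in human tissues, were 76.24, 76.15 and 61.0 FPKM in control, 74.1, 69.2 and 65.4 FPKM at 1%, and 141, 57.5 and 208 FPKM at 2%. The ranks of the 2 measures matched at 2% but not in control or at 1%, where the library with the highest sum did not have the most C7. All 8 of these markers were tested, all 8 lay above control at 2%, and 0 passed. T and NK cell markers lay below control for 7 of 7 tested genes, with sums of 20.6 to 25.96 FPKM at 2% and 28.6 to 42.7 FPKM in control. The part of either list in the levels of C7 and the other genes was not tested. The ratio of C6 to C7 spanned 13.5 in 2% library 3 to 50.2 in 2% library 2.

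The third comparison set 2% against 1% succinate. No gene passed in limma, in the set or among all tested genes (0%), and voom passed 0 of the set. As at 2% against control, 0 genes of the set had an unadjusted p under 0.05 by either tool, beside 6.2% of all tested genes higher and 1.29% lower. The groups did not overlap for C8B, F7 and SERPIND1, higher at 2% (9.09% of the set), and for SERPING1, lower at 2% (3.03%), beside 11% and 3.33% of all tested genes.

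SERPIND1 had the smallest adjusted p of the set, with 649, 576 and 543 FPKM at 2% and 513.5, 396 and 387 FPKM at 1% (log2 change 0.46, SE 0.207, adjusted p = 0.656, limma). The control libraries, at 532.5, 515.5 and 659 FPKM, overlap those at 2%. F7 had a log2 change of 0.41 (adjusted p = 0.71) and C8B of 0.31 (adjusted p = 0.79), and in C8B the 3 libraries at 2%, at 222, 241 and 247 FPKM, lay within the control range. By role, 12 of 15 coagulation and fibrinolysis genes lay above 1% at 2%, against 6 of 18 complement genes and 7384 of all 11944 tested genes. Above the median of all tested genes (0.071) lay 8 of 15 and 6 of 18. Under median-ratio scaling 7 of 15 and 4 of 18 lay above 1%. Without library 3 at 1% the coagulation count was 6 of 15, and without control 2 and 1% library 2 the complement count was 14 of 18. Leaving out a single library gave at most 2 genes at an unadjusted p under 0.05. These were F5 and SERPIND1 without library 1 at 1%, and F13B and KLKB1 without library 2 at 1%. F7 was there without control 1. In these settings 586 to 1158 of all tested genes were higher and 158 to 221 lower. In total, 24 of the 33 genes overlapped in all 3 comparisons. The share of all tested genes that did so was not counted.

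**Figure D5:**
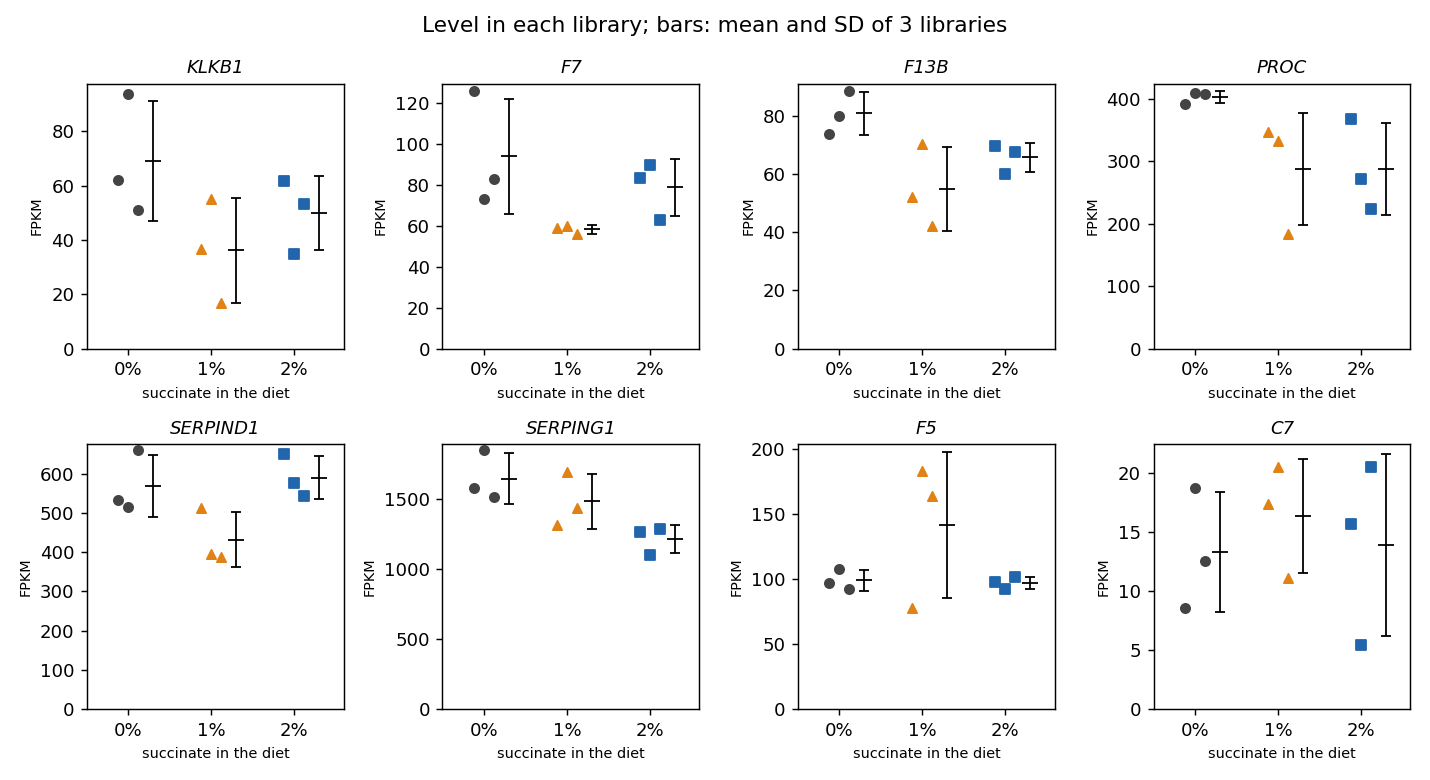
FPKM of 8 genes in each library by succinate in the diet (0%, 1% and 2%; points in library order, left to right); the horizontal mark and bars give the mean and SD of the 3 libraries. F7 at 1% (55.9 to 59.9 FPKM) and SERPING1 at 2% (1104 to 1287 FPKM) lie below all control libraries, while F5 at 1% and C7 at 2% span the other diets.

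Several of these genes sit side by side in the genome, in the order of the RefSeq sheep table, in which 32 of the 33 were found. C1R and C1S, C8A and C8B, CFB and C2, and F7 and F10 had 0 protein-coding genes between them, and C6 and C7 had 1. F7 and F10 had log2 changes of -0.64 and -0.40 at 1%, and -0.23 and -0.14 at 2%. C1R and C1S, whose products form 1 complex, kept a ratio of 1.15 to 1.62 over the 9 libraries. C8B to C8A ranged from 1.97 to 3.46 and C8G to C8A from 0.933 to 2.51, although the 3 products also form 1 complex. The size of these ratios depends on the gene models, whose implied lengths were 7584 bases for C8A, 2237 for C8B and 745 for C8G.

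The remaining genes are given for completeness. F12, the initiator of contact activation, ranged from 60.6 to 126 FPKM and KNG1, the source of bradykinin, from 272 to 459 FPKM. F10, the protease of prothrombinase, ranged from 187 to 296 FPKM, with a log2 change of -0.40 at 1% (adjusted p = 0.352, limma). PROS1, the cofactor of protein C, ranged from 64.75 to 106 FPKM, and SERPINC1, which encodes antithrombin, from 711 to 1085 FPKM. PLG, the precursor of plasmin, ranged from 826 to 1506 FPKM and SERPINF2, which encodes the plasmin inhibitor, from 294.5 to 472 FPKM, both with changes between -0.21 and -0.11 at either dose. In complement, MASP2 ranged from 71.3 to 105 FPKM, C2 from 208 to 361 FPKM, and C4BPA, which encodes a cofactor of CFI, from 88.7 to 195 FPKM. None of these separated either dose from control.

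Related genes outside the set were read from lists of the pathway, with 0 passing in any list at either dose. From each list the 2 genes with the smallest unadjusted p against control are named. Their separation from control is therefore no independent support. The direction counts below stand beside a background of 8190 of all 11944 tested genes below control at 1% and 7245 at 2%. In the list of other complement components, 8 of 8 tested genes lay below control at 1% (6 of 8 under median-ratio scaling) and 7 of 8 at 2%. MBL2, the mannose-binding lectin that recruits the MASP proteases, was at 313, 357 and 379 FPKM in control, 239, 227 and 169 FPKM at 1% and 256, 167 and 201 FPKM at 2%. Every dosed library lay below every control, as for 15.6% of all tested genes at 1% and 8.02% at 2%. The log2 changes of MBL2 were -0.74 at 1% (adjusted p = 0.267) and -0.76 at 2% (adjusted p = 0.868, limma), so neither passed. COLEC11, a further lectin of that route, had means of 54.9 ± 5.47 FPKM in control, 41.3 ± 2.03 FPKM at 1% and 45.2 ± 3.90 FPKM at 2% (SD, n = 3). A gene of complement C4, FCN1 and FCN2 were not analysed here.

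Of 12 tested complement regulators and receptors, 7 lay below control at 1% and 8 at 2%. CPN1 and CPN2, the 2 subunits of the carboxypeptidase that inactivates anaphylatoxins, differed in sign. CPN2 averaged 103 ± 16.1 FPKM in control, 73.4 ± 14.6 FPKM at 1% and 60.8 ± 7.34 FPKM at 2% (log2 change against control -0.49 at 1% and -0.75 at 2%), and CPN1 averaged 56.6 ± 18.03 FPKM in control, 97.2 ± 31.0 FPKM at 1% and 83.0 ± 10.4 FPKM at 2% (log2 change 0.77 at 1% and 0.58 at 2%; SD, n = 3). CLU was not analysed here.

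Of 22 other tested coagulation and fibrinolysis genes, 13 lay below control at each dose, and 11 at 1% and 10 at 2% under median-ratio scaling. The fibrinogen chains FGA and FGG had log2 changes of 0.84 and 0.87 at 1% (adjusted p = 0.336 and 0.329, limma), with 5519, 13180 and 11010 FPKM of FGA at 1% and 4843, 7222 and 3962 FPKM in control. These groups overlap, and 2 libraries at 1% stand far above the rest. In the list for the vitamin K cycle and factor secretion, 4 of 10 tested genes lay below control at 1% and 7 at 2%, and 2 and 4 under median-ratio scaling. NQO1, a quinone reductase able to reduce vitamin K, averaged 3.50 ± 1.18 FPKM at 1% and 7.77 ± 2.12 FPKM in control (log2 change -0.97, adjusted p = 0.227), and MCFD2, a receptor subunit for the export of factors V and VIII, averaged 128 ± 12.2 FPKM at 1% and 84.6 ± 15.9 FPKM in control (log2 change 0.60, adjusted p = 0.267, limma). The groups did not overlap for either gene at 1%, beside 15.6% of all tested genes lower and 2.28% higher. Both genes were named for their small p in these same libraries.

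Among 15 hepatocyte transcription factors, 9 lay below control at 1% (7 under median-ratio scaling) and 6 at 2%. CEBPA, an activator of many liver genes, averaged 91.6 ± 9.30 FPKM in control, 68.2 ± 19.7 FPKM at 1% and 59.0 ± 7.85 FPKM at 2% (SD, n = 3), and NR2F1 was low throughout, at means of 1.91 to 2.88 FPKM. Of 12 genes of interleukin 6 and interleukin 1 signalling, which drive the acute phase response, 6 lay below control at 1% and 8 at 2%, and 4 and 5 under median-ratio scaling. The kinase TYK2 averaged 17.4 ± 1.87 FPKM in control, 11.9 ± 0.385 FPKM at 1% and 15.1 ± 1.37 FPKM at 2%. IL1R1, the receptor of interleukin 1, was at 73.6, 76.9 and 15.3 FPKM in control, 44.1, 183.5 and 256 FPKM at 1% and 66.7, 125 and 65.1 FPKM at 2%. Its 2 highest values fell in the 2 libraries with the most fibrinogen RNA, though in the reverse order. A link between them was not tested.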

How the data were processed

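RNA from liver was sequenced with paired-end reads after TRIzol extraction and NEBNext Ultra library preparation, per the labels' protocols. The deposited unit is FPKM, 1 value per gene and library, per the file headers. No source used here names the aligner, counter, annotation or strand setting. Mouse builds (GRCm38, mm10) appear in the submitters' processing notes although the gene symbols follow the sheep annotation, so no coordinates or sequences are given. How reads shared by related genes were assigned is not stated, and close paralogs are uncertain.

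The FPKM of 17402 of 17402 genes above 0 in at least 2 libraries were whole multiples of 1 read's worth, within a tolerance of 0.01. The recovered reads (13818648 to 18172528 per library, median 14994744) served for counting errors, for voom and for simulated data on which the fit was tested. Counting errors cover read sampling only.

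Tests used limma 3.58.1 (R 4.3.3) on log2(FPKM + 1), a scale that understates changes of low genes. Genes needed at least 1 FPKM in at least 3 of 9 libraries. All 9 libraries shared 1 fit with an intensity trend, and two-sided p-values were adjusted by Benjamini-Hochberg over 11944 genes (threshold 0.05). Tables and plots were made with Python 3.11.15, pandas 2.3.3, numpy 2.4.6 and matplotlib 3.10.9. The members and lists were chosen with earlier results of these data known. Named genes were all members, with per-library values for those at an unadjusted p under 0.05, the 3 highest and the 3 most variable. Further members with groups that did not overlap, with C8B and CFI, were chosen after their values were seen. From each pathway list, the 2 genes with the smallest p at either dose were named, plus ALB. Alternatives covered scaling, pseudocount, filter, the library of conflicting labels, libraries left out, a replicate block and voom. A search of promoters for motifs was not run.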

Additional observations from a re-analysis of the deposited data

How the results depend on the processing

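The number of members passing stayed at 0 in each comparison under every alternative run: quantile and median-ratio scaling, a pseudocount of 0.1, no filter or a mean of at least 5 FPKM, library 3 at 1% placed at 2%, only the 2 groups compared, each library left out, voom on recovered reads, a replicate block, and, chosen after seeing the data, leaving out both control 2 and 1% library 2 or the 3 rows matched by identifier. Members at an unadjusted p under 0.05 at 1% against control numbered 3, and 1 under quantile scaling, 1 under median-ratio scaling, 0 with library 3 at 1% placed at 2%, and 1 to 7 with 1 library left out. Over all tested genes, 1526 were lower and 252 higher. The counts were 702 and 832 under quantile scaling and 703 and 981 under median-ratio scaling. They were 497 and 69 with that library at 2%, and 754 to 2043 and 96 to 712 with 1 library left out. At 2% against control such members numbered 0, 1 with library 3 at 1% placed at 2%, and 0 to 1 with 1 library left out. Over all tested genes, 492 were lower and 127 higher. These became 844 and 200 with that library at 2%, and 297 to 659 and 90 to 434 with 1 library left out. For 2% against 1% the members numbered 0, 1 under quantile scaling, 1 without both control 2 and 1% library 2, and 0 to 2 with 1 library left out. Over all tested genes, 740 were higher and 154 lower. The counts were 456 and 399 under quantile scaling, 524 and 152 without both libraries, and 389 to 1158 and 91 to 259 with 1 left out. The cause was not tested, beyond the smaller number of libraries where some were left out. Correlations of deviations from the group means were -0.295 to 0.278 for libraries with the same number, highest for control 2 with 1% library 2. They were -0.293 to 0.453 for libraries with different numbers, so the numbers were not taken as pairs. With the replicate block the counts were 3, 0 and 0, as without it, and no call changed.

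The median log2 change of the members at 1% was -0.34 to -0.08 with 1 library left out and 0.02 under median-ratio scaling; at 2% against control it was -0.18 to -0.02, and for 2% against 1% it was -0.10 to 0.17, and -0.14 with library 3 at 1% placed at 2%. Over 19 alternatives, F7 kept an unadjusted p under 0.05 in 17, F13B in 14 and KLKB1 in 13 (limma or voom). Their adjusted p-values were 0.222 to 0.896, 0.233 to 0.896 and 0.238 to 0.896, and the log2 changes stayed negative. These genes were picked by that p in the main fit on the same libraries. Several settings also leave the log2 change as it was, such as -0.642 for F7 without a filter or with the replicate block. The tally is therefore no independent support. The settings for groups that do not overlap were also chosen after seeing the data. Without control 2 and 1% library 2, groups did not overlap for 17 lower and 1 higher member at 1%, beside 29.2% and 6.87% of all tested genes, in groups of 2. Counting errors were at most 6.03% for any member in any library.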
